A study of Homo sapiens with 12 samples.

Results

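The genes described here are 8 of the 61541 in the deposited count table: the neurofilament subunits NEFL, NEFM and NEFH, the related filament protein INA, the neuronal pentraxins NPTX1 and NPTX2, the pentraxin receptor NPTXR, and the receptor PRTG. They were chosen by symbol, in part because NEFL and NPTX1 were high in lone TYMS knockout cells and lower in the co-culture of those cells. The difference between lone knockout and lone control and the difference between co-cultured and lone knockout were therefore used in the choice, and are given below as descriptions with no test. Knockout against control within co-culture, and co-cultured against lone control, were tested. Because the co-cultured knockout libraries enter both the choice and the first of these tests, NEFL and NPTX1 were picked partly on libraries that it uses.

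RNA was sequenced at 14 days post transduction from cells that the labels give as A549, an established human lung adenocarcinoma cell line. There were 4 groups of 3 libraries, and all of them are labelled as given no treatment. Lone control cells carried the non-targeting guide gNTC1, and lone knockout cells carried a Cas9-made knockout of TYMS, the gene of thymidylate synthase. Co-cultured control and co-cultured knockout cells were the same genotypes in co-culture, and per the series text parental A549 cells were present with the knockout cells, which then regained proliferation. The labels do not say what the partner of the control cells was, whether partners were removed before RNA was taken, whether the knockout was a clone, or whether replicates were separate cultures. P-values therefore measure the spread between these libraries, which may be technical.

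Neurofilaments are the intermediate filaments of mature neurons. NEFL is the core subunit that the longer NEFM and NEFH subunits assemble with, and INA (alpha-internexin) is a further partner that appears early in neuronal development. NPTX1 and NPTX2 are secreted proteins of excitatory synapses that gather AMPA-type glutamate receptors, and NPTXR is their membrane-anchored relative. PRTG (protogenin) is a surface receptor of the DCC and neogenin family, known from the early embryo. These genes are best known from neurons and embryos, not from lung epithelium.

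TYMS itself was at 95.3 ± 5.26 CPM (counts scaled to a common library size by the trimmed mean of M-values, mean ± SD, n = 3) in lone control, 93.4 ± 2.67 in co-cultured control, 20.8 ± 0.547 in lone knockout and 11.0 ± 0.360 in co-cultured knockout. The knockout label thus matched a lower TYMS level in all 6 libraries. Library totals ran from 14921371 to 35723762 counts. In A549, CDKN2A, CDKN2B and MTAP are known to be lost from the genome. Against this, the summed level of these 3 genes was 154 to 165 CPM in the libraries labelled lone control and 122 to 142 CPM in those labelled co-cultured control, and at most 0.745 CPM in any library labelled knockout. The epithelial markers EPCAM, CDH1, CLDN4, CLDN7 and ESRP1 summed to 690 to 949 CPM in the control libraries and 30.3 to 34.9 CPM in the knockout libraries. The levels of CDKN2A, CDKN2B and MTAP go against the A549 label of the control libraries. No A549 reference for the epithelial markers was used. The 9 enzyme genes known to be high in A549 summed to 6512 to 8438 CPM in control and 14792 to 16393 CPM in knockout libraries. Whether the control libraries came from another line was not tested. The libraries labelled control and knockout differed in more than TYMS, and in every comparison between them below the knockout and these other differences cannot be told apart. In the co-cultured knockout, CDKN2A stood at 0.0549% and MTAP at 0.788% of their co-cultured control level, so these transcripts of the control libraries were near 0 there. The share of RNA from parental A549 partners in the co-cultured libraries was not tested. In every group, deviations of libraries from their group mean correlated with transcript GC content across genes. The third co-cultured knockout library was at -0.753 and the second at 0.735. Replicates 1 and 3 were at -0.615 and 0.583 in lone control and at -0.483 and 0.58 in co-cultured control. In lone knockout they were at -0.541 and 0.533. Leaving out the third co-cultured knockout library raised the number of genes called between co-cultured and lone knockout from 1907 to 5681.

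Promoter sequences of 3 of the 8 genes were matched in RefSeq (GRCh38.p14), namely INA, NPTX2 and PRTG. The 250 bases before each annotated start are shown, because INA and PRTG shared the order of levels described below while NPTX2 was barely counted. Capitals mark the GC box GGGCGG and the right-hand arm of the RE1 element, GGACAG, on either strand. RE1 is the element read by REST, a repressor of neuronal genes outside neurons.
INA (chr10:103276888-103277137, plus strand): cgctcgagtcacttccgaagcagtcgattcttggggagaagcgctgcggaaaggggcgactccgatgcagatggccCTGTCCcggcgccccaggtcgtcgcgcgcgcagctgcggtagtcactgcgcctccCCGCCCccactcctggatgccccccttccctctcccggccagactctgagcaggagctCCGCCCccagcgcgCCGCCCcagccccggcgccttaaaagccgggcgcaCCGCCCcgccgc
PRTG (chr15:55743153-55743402, minus strand): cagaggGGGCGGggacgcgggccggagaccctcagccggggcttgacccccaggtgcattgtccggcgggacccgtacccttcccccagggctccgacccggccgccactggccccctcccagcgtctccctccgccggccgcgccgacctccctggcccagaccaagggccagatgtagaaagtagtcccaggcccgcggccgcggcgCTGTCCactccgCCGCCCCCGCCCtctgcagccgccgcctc
NPTX2 (chr7:98617035-98617284, plus strand): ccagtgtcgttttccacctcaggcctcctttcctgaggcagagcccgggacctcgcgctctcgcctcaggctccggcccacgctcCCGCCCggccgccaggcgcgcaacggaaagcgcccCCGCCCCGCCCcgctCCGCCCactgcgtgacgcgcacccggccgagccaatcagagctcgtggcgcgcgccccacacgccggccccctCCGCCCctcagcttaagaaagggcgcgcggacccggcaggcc

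All 3 windows were rich in CpG, with 30 in INA, 27 in PRTG and 34 in NPTX2, against a median of 11 over 27305 promoters of the same length. INA held 4 GC boxes, PRTG held 3 and NPTX2 held 5, of which a pair in NPTX2 share a base. The GC box occurs in 42.3% of those promoters. GGACAG was found once in INA, 174 to 169 bases before the start, and once in PRTG, 41 to 36 bases before it, and occurs in 17.1% of promoters. The left-hand arm of RE1, AGCACC (12.9% of promoters), the TATA box TATAAA (11.1%) and the cyclic AMP response element TGACGTCA (1.77%) were not in these 3 windows on either strand. NPTX2, at or near 0 counts in every library, held GC boxes as INA and PRTG did.

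NEFL, the core neurofilament subunit, differed most between knockout and control among the 5 members that passed the filter on low counts. NEFL (ENSG00000277586, minus strand) and NEFM (ENSG00000104722, plus strand) are neighbours at chr8:24950955-24957110 and chr8:24913012-24919098 (GRCh38, GENCODE 29, 1-based, whole gene bodies here and below), with 31.86 kb between them. Exons of NEFL, NEFM, NEFH and PRTG overlap an exon of a gene on the other strand by 490, 1706, 333 and 111 bases, and the strand setting of the counting is not given in the sources used here. NEFL was at 0.805, 1.05 and 0.764 CPM in the lone control libraries (replicates 1 to 3) and at 1.60, 1.87 and 1.95 CPM in the co-cultured control. In the lone knockout it was at 93.7, 86.7 and 90.6 CPM, and in the co-cultured knockout at 61.3, 53.1 and 51.9 CPM. The 4 groups did not overlap, and their order was lone knockout, co-cultured knockout, co-cultured control, lone control. The lone control level rested on 44 counts in all, with a 95% exact Poisson interval of 0.589 to 1.09 CPM, which covers counting error only. The lone knockout was 6.69 (SE 0.18) above the lone control on the log2 scale, 103-fold, the 46th highest value of the 16768 genes tested. In bulk RNA, more cells with the transcript and more transcript per cell cannot be told apart.

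INA (ENSG00000148798, chr10:103277163-103290351, plus strand), which can build filaments with NEFL, followed the same order at a smaller range. Its levels were 8.48, 8.06 and 4.42 CPM in lone control and 7.47, 8.10 and 7.13 CPM in co-cultured control, which overlapped. It was at 49.2, 43.9 and 50.6 CPM in lone knockout, above every other library. In the co-cultured knockout it was at 21.5, 19.8 and 30.0 CPM, apart from both the lone knockout and the controls, with the third library the highest. The lone knockout was 2.78 (SE 0.24) above the lone control on the log2 scale.

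NEFM and NEFH, the longer subunits, were barely counted and did not pass the filter on low counts. NEFM had 0 counts in the 3 lone control libraries, which allows up to 0.0552 CPM. It had 1, 0 and 0 counts in co-cultured control, 4, 2 and 5 in lone knockout, and 10, 12 and 9 in co-cultured knockout. NEFM was thus the neurofilament gene with its highest counts in the co-cultured knockout, where NEFL and INA were below the lone knockout. The 31 counts of the co-cultured knockout against 1 in its control give a ratio of 25.6 (95% exact interval 4.27 to 1044, counting error only). For the co-cultured against the lone knockout the ratio was 1.92 (0.941 to 4.24).

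NEFH (ENSG00000100285, chr22:29480230-29491390, plus strand) stayed at 7 counts or fewer in every library. It had 1, 2 and 2 counts in lone control, 1, 0 and 2 in co-cultured control, 7, 2 and 5 in lone knockout, and 0, 4 and 3 in co-cultured knockout. Its lone groups overlapped, and the ratio of the lone knockout to the lone control was 2.68 (0.913 to 9.51).

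NPTX1 (ENSG00000171246, chr17:80467148-80477843, minus strand), a secreted pentraxin, showed the steepest fall in co-culture among the 5 members that passed the filter on low counts. It was at 5.70, 3.57 and 5.19 CPM in lone control and at 4.09, 4.82 and 3.99 CPM in co-cultured control, and these groups overlapped. In lone knockout it was at 53.1, 52.0 and 63.2 CPM, and in co-cultured knockout at 16.1, 13.8 and 13.0 CPM. Every co-cultured knockout library lay below every lone knockout library and above every control library. The lone knockout was 3.54 (SE 0.20) above the lone control on the log2 scale, and the co-cultured knockout fell by 1.97 (SE 0.19) from the lone knockout, the 92nd lowest value of the 16768 genes tested.

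NPTX2 (ENSG00000106236, chr7:98617297-98629868, plus strand), the other secreted pentraxin, had at most 4 counts in any library. It had 0, 4 and 0 counts in lone control, 0, 1 and 2 in co-cultured control, 0, 0 and 1 in lone knockout, and 2, 4 and 2 in co-cultured knockout. On these few counts every co-cultured knockout library was above every lone knockout library. The same held for 16.7% of the 16768 genes tested, which do not include NPTX2. The ratio of the summed levels was 5.46 (95% exact interval 0.732 to 242, counting error only).

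NPTXR (ENSG00000221890, chr22:38818452-38843982, minus strand), the membrane-anchored receptor, was abundant in every group. It was at 60.7, 79.6 and 84.5 CPM in lone control and at 62.9, 57.5 and 73.2 CPM in co-cultured control. In lone knockout it was at 63.8, 67.3 and 69.8 CPM, and in co-cultured knockout at 80.9, 84.2 and 67.5 CPM. Neighbouring groups in its order of means overlapped. The log2 difference between lone knockout and lone control was -0.16 (SE 0.15). This sign was not stable: the difference was 0.01 with scaling by library size alone and 0.83 with a correction for GC content, and NPTXR transcripts are 64.8% GC.

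PRTG (ENSG00000166450, chr15:55611546-55743090, minus strand), the embryonic receptor, was scarce in the controls and moderate in the knockout. It was at 0.991, 0.800 and 0.382 CPM in lone control and at 1.48, 1.64 and 1.55 CPM in co-cultured control. In lone knockout it was at 10.7, 8.70 and 7.48 CPM, and in co-cultured knockout at 4.74, 3.69 and 6.0 CPM. As for NEFL, the 4 groups did not overlap and stood in the order lone knockout, co-cultured knockout, co-cultured control, lone control. The lone knockout was 3.64 (SE 0.33) above the lone control on the log2 scale.

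**Figure D1:**
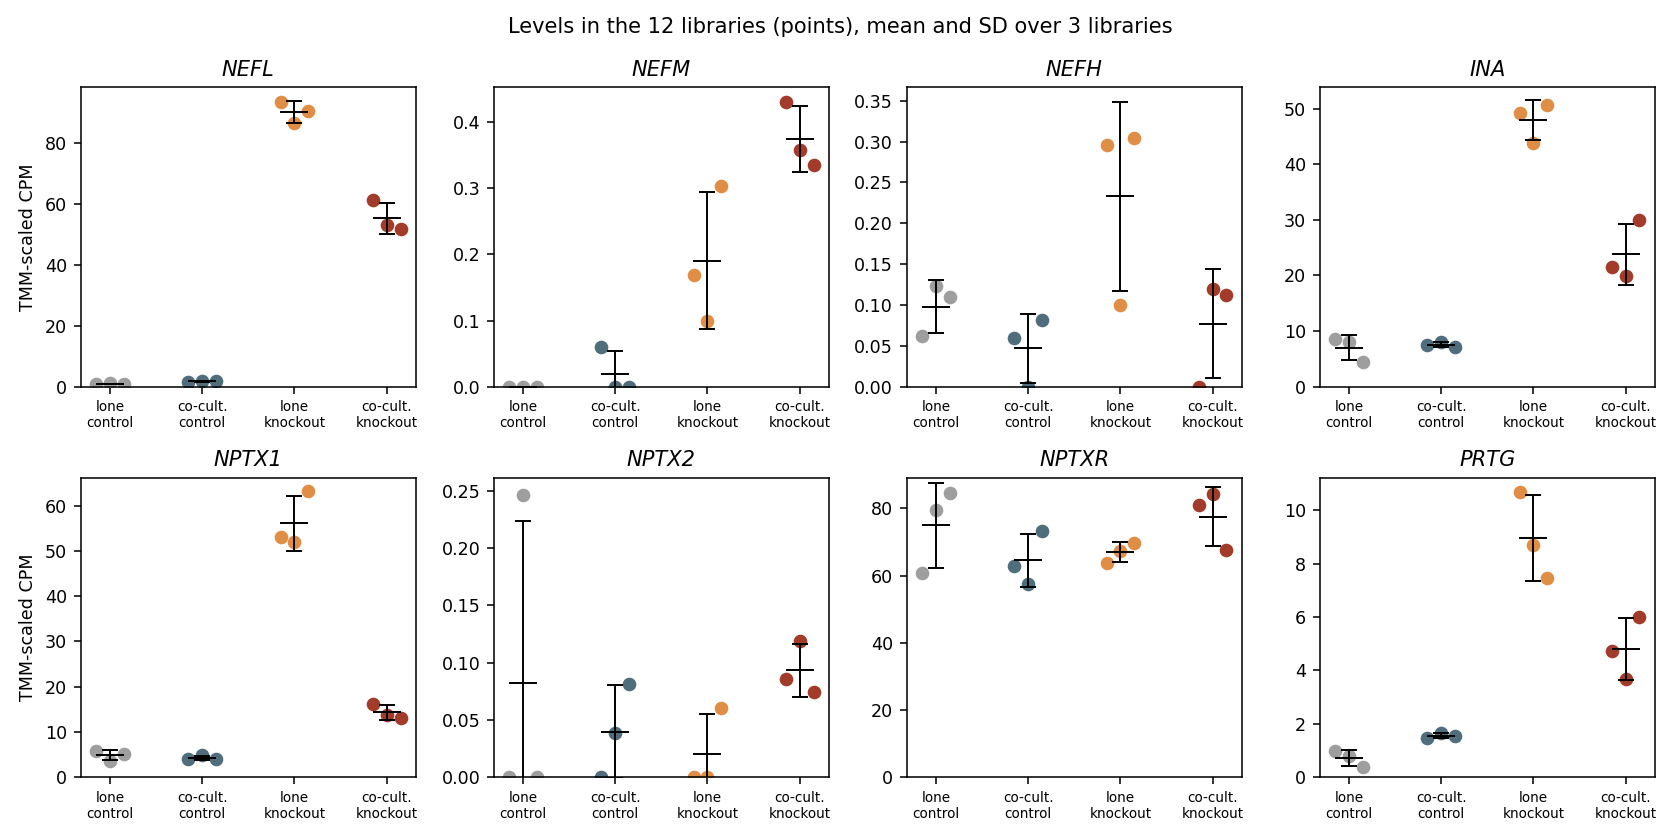
Level of each gene (vertical axis, CPM scaled by the trimmed mean of M-values, a separate linear scale per panel) in the 4 groups (horizontal axis). Points are libraries, and the bars give the mean and SD of 3 libraries: NEFL rises from 0.872 ± 0.152 CPM in lone control to 90.3 ± 3.51 in lone knockout, while NPTXR lies between 57.5 and 84.5 CPM throughout.

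Of the 5 members that passed the filter on low counts, 4 (NEFL, INA, NPTX1 and PRTG) had every lone knockout library above every lone control library. Of all 16768 genes tested, 33.8% did, and nothing is read from the members' count, since this contrast was used to choose them. Likewise 4 of 5, the same genes, had every co-cultured knockout library below every lone knockout library, as did 14.9% of all genes. In that comparison the log2 differences were -0.71 (SE 0.13) for NEFL, -1.01 (SE 0.22) for INA, -1.97 (SE 0.19) for NPTX1, -0.90 (SE 0.27) for PRTG and 0.21 (SE 0.15) for NPTXR. With the GC correction NPTXR turned to -0.09, and PRTG, whose transcripts are 42.6% GC, moved to -0.50. The third co-cultured knockout library was the highest of its group for INA and PRTG and the lowest for NEFL, NPTX1 and NPTXR. Without it, the differences of the 5 genes kept their signs. Both comparisons share the lone knockout libraries, so a high value there moves them in opposite directions.

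Levels per kilobase of exon allow the genes to be set beside each other. In lone control the order of mean CPM per kilobase was NPTXR (13.0), INA (2.16), NPTX1 (0.719), NEFL (0.201) and PRTG (0.0497). In lone knockout it was NEFL (20.9), INA (14.8), NPTXR (11.6), NPTX1 (8.37) and PRTG (0.615). NEFL thus moved ahead of NPTXR, INA and NPTX1, and NPTXR fell behind NEFL and INA. In co-cultured knockout the order was NPTXR (13.4), NEFL (12.8), INA (7.37), NPTX1 (2.13) and PRTG (0.330). The first pair there differed by less than their SDs, 1.52 for NPTXR and 1.18 for NEFL.

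The make-up of each family shifted with these levels. NEFL was 8.43% of the summed CPM per kilobase of NEFL, NEFM, NEFH and INA in lone control, 15.1% in co-cultured control, 58.3% in lone knockout and 63.1% in co-cultured knockout. The rest was almost all INA, since NEFM and NEFH had at most 0.0855 CPM per kilobase in any group. NPTXR was 94.6% of the summed CPM per kilobase of the 3 pentraxin genes in lone control, 94.5% in co-cultured control, 58.0% in lone knockout and 86.1% in co-cultured knockout, and NPTX1 made up almost all of the rest.

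Within co-culture, NEFL, INA, NPTX1 and PRTG were higher in the libraries labelled knockout than in those labelled control, and NPTXR did not pass the test. NEFL rose by 4.92 (SE 0.16) on the log2 scale, 30.3-fold, from 1.81 ± 0.185 to 55.4 ± 5.10 CPM, with an adjusted p of 4.09e-10 (edgeR's quasi-likelihood test with Benjamini-Hochberg adjustment over all genes, as below). NPTX1 rose by 1.73 (SE 0.19), from 4.30 ± 0.450 to 14.3 ± 1.61 CPM, with an adjusted p of 8.86e-06 by edgeR. INA rose by 1.65 (SE 0.23), from 7.57 ± 0.496 to 23.8 ± 5.47 CPM (edgeR adjusted p = 7.13e-05), and PRTG by 1.62 (SE 0.29), from 1.56 ± 0.0810 to 4.81 ± 1.16 CPM (edgeR adjusted p = 0.000536). In each of these 4 genes all 3 knockout libraries lay above all 3 control libraries, as in 26.9% of all genes, and an exact two-sided permutation test gave 0.1, the lowest it can reach with 3 against 3. NPTXR was 0.26 (SE 0.15) higher, with overlapping libraries, a 95% interval of -0.032 to 0.562 and an edgeR adjusted p of 0.166. It passed with scaling by library size alone (0.30, edgeR adjusted p = 0.0149) and with the GC correction (0.67, edgeR adjusted p = 0.000377).

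In this comparison 4 of the 5 members tested were called, all of them higher, against 24.1% of all genes called higher and 25.3% called lower. Their median log2 difference was 1.65, and that of all 16768 genes was -0.02. NEFL and NPTX1 were chosen partly for high levels in the lone knockout, so nothing is read from this count or median. The NEFL difference was the 110th highest of all genes tested, and that of PRTG the lowest of the 4 called.

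**Figure D2:**
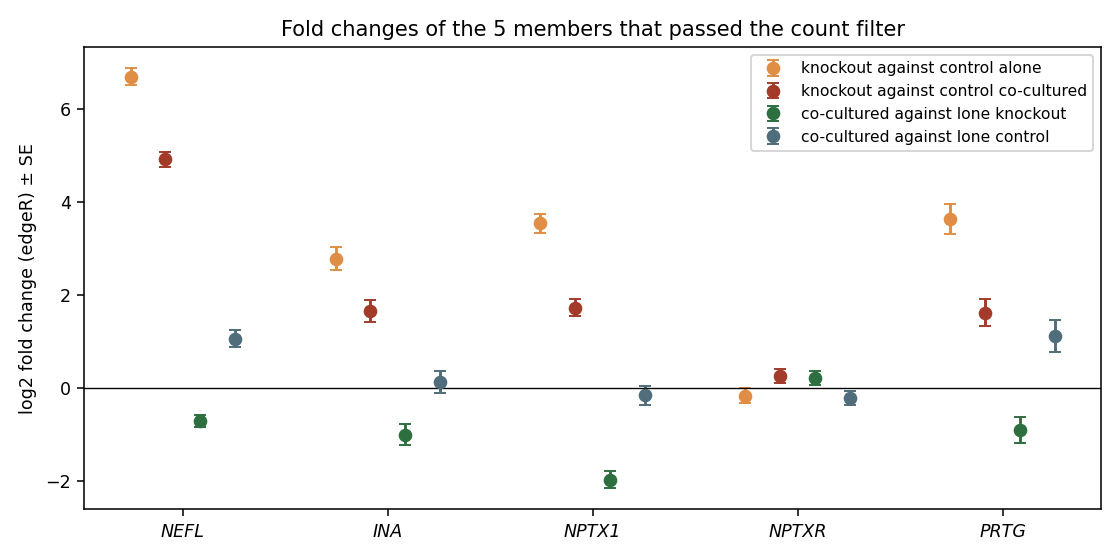
Log2 fold changes (vertical axis, edgeR, bars are ± 1 SE) of the 5 genes with enough counts in the 4 pairwise comparisons (colours). Differences between knockout and control are above 1.6 for NEFL, INA, NPTX1 and PRTG both alone and in co-culture, and the NPTXR values lie between -0.22 and 0.26.

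Co-cultured and lone control libraries did not differ by the adjusted test in any of the 5 members, nor in any of the 16768 genes (edgeR, 0%; DESeq2 also called 0). At an unadjusted p under 0.05, NEFL and PRTG were higher in the co-cultured control, as were 1.59% of all genes (540 genes passed in either direction). NEFL was 1.06 (SE 0.19) higher on the log2 scale (edgeR adjusted p = 1.0) and PRTG 1.12 (SE 0.34) higher (edgeR adjusted p = 1.0). For both genes all 3 co-cultured control libraries lay above all 3 lone control libraries, as they did for 4.48% of all genes, and an exact permutation test gave 0.1, its limit for 3 against 3. The levels behind these differences were low, with 44 counts of NEFL in the lone and 124 in the co-cultured control, and 36 and 106 counts of PRTG. The log2 differences of INA (0.12, SE 0.24), NPTX1 (-0.16, SE 0.20) and NPTXR (-0.22, SE 0.15) all had 95% intervals that include 0.

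The co-culture difference therefore went opposite ways without overlap in the libraries labelled control and knockout for NEFL and PRTG. The difference in knockout minus that in control was -1.77 (SE 0.23) for NEFL, -2.02 (SE 0.44) for PRTG, -1.81 (SE 0.27) for NPTX1, -1.13 (SE 0.33) for INA and 0.43 (SE 0.21) for NPTXR, on the log2 scale. These values contain the contrast used in the choice, and no test is given. Of all genes tested, 0.441% had libraries that were higher without overlap in the co-cultured control and lower without overlap in the co-cultured knockout.

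**Figure D3:**
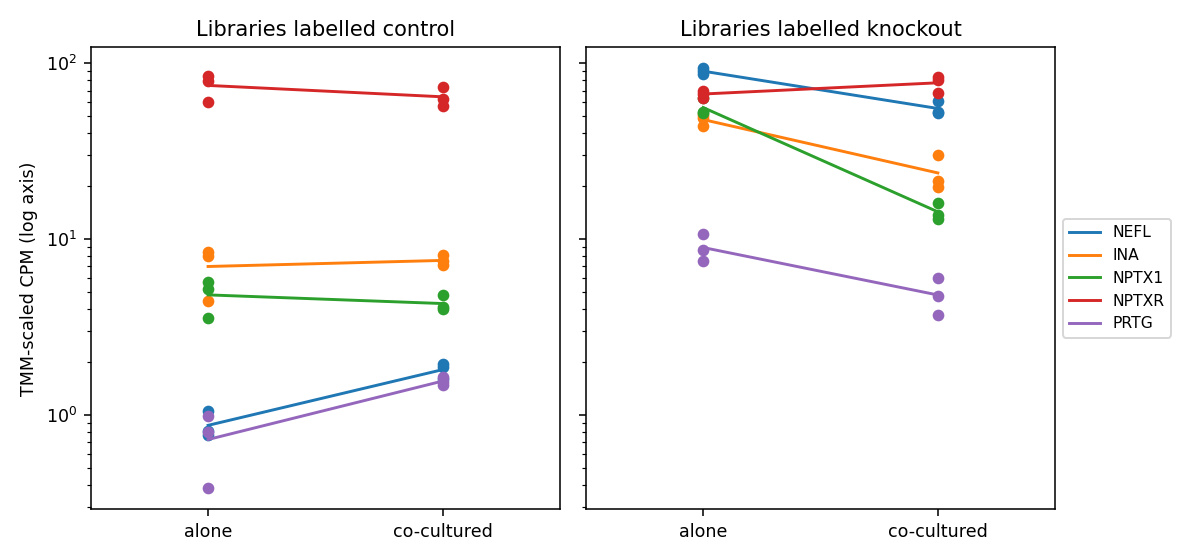
Level (vertical axis, log scale, CPM scaled by the trimmed mean of M-values) of the 5 genes in lone and co-cultured libraries, control at left and knockout at right. Points are libraries and lines join group means: NEFL and PRTG go up in control (NEFL from 0.872 to 1.81 CPM) and down in knockout (from 90.3 to 55.4 CPM), and NPTX1 goes down from 56.1 to 14.3 CPM in knockout.

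The other cytoplasmic intermediate filaments, a list of 18 genes of which 16 were tested, did not move as one. In co-cultured knockout against co-cultured control 7 were higher, 7 were lower and 2 were not called by edgeR, with a median log2 difference of 0.07. Of all genes, 24.1% were called higher and 25.3% lower in this comparison, which holds for each list below. VIM (vimentin, the filament of mesenchymal cells) was at 227 CPM (alone) and 266 CPM (co-cultured) in control libraries, against 1158 CPM (alone) and 877 CPM (co-cultured) in knockout libraries, and rose by 1.72 (SE 0.12, edgeR adjusted p = 1.36e-07) within co-culture. SYNC (syncoilin, of muscle) rose by 3.34 (SE 0.35, edgeR adjusted p = 6.10e-06). NES (nestin, of neural progenitors) fell by 4.77 (SE 0.20, edgeR adjusted p = 1.89e-09), from 31.4 to 1.14 CPM. The keratins split. KRT8, KRT18 and KRT19 fell, with log2 differences of -0.98, -0.81 and -1.74 (edgeR adjusted p = 0.00328, 0.00934 and 8.77e-05). KRT7, KRT80 and KRT81, named here after their values were seen, rose by 1.74, 1.23 and 1.23 (edgeR adjusted p = 0.000243, 0.00023 and 0.00579). In co-cultured against lone knockout, 1 of the 16 was called, VIM, lower by 0.40 (edgeR adjusted p = 0.0455), and that call was lost without any one of the 6 libraries compared.

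Of 12 genes for the transport, linkage and turnover of neurofilaments, all were tested, and within co-culture 1 was called higher in knockout and 4 lower by edgeR. The one that rose was PLEC (plectin, a linker of intermediate filaments), by 0.91 (edgeR adjusted p = 0.00343). TRIM2, an E3 ligase that binds NEFL, fell by 4.89 (SE 0.62, edgeR adjusted p = 2.87e-05), from 5.36 ± 1.62 to 0.161 ± 0.151 CPM. KIF5A, a kinesin that carries neurofilaments, fell by 1.73 (edgeR adjusted p = 3.56e-05). The kinesin KIF5C fell by 1.59 (edgeR adjusted p = 0.00948). In the lone cultures 4 of the 12 were called higher and 3 lower by edgeR, where 28% of all genes were called higher and 28.6% lower.

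Of 11 other pentraxins and synaptic partners of the neuronal pentraxins, 3 were tested and 0 were called within co-culture by edgeR (0 at an unadjusted p under 0.05, and 0 by DESeq2). The 4 AMPA receptor genes GRIA1, GRIA2, GRIA3 and GRIA4, whose products NPTX1 and NPTX2 gather at synapses, had mean levels of 0.066 CPM or less in every group. ADAM17, a protease that releases NPTXR from the membrane, was at 18.6 ± 2.50 CPM in co-cultured control and 24.8 ± 11.0 in co-cultured knockout (edgeR adjusted p = 0.314). It was higher in the lone knockout by 1.08 (edgeR adjusted p = 0.0146), a call lost without the third lone control library (0.0759) or the first lone knockout library (0.0763). The short pentraxins CRP and APCS had mean levels of 0.041 CPM or less, and PTX3 was at 0.662 to 1.17 CPM.

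Among 15 receptors of the DCC family and their ligands, 11 were tested, and within co-culture 4 were higher and 5 lower in knockout by edgeR. IGDCC4, a receptor of the same family as PRTG, rose by 3.42 (SE 0.23, edgeR adjusted p = 9.77e-08). Unlike PRTG, its mean was not lower in the co-cultured knockout (45.7 ± 1.91 CPM) than in the lone knockout (30.8 ± 3.09), and this difference of 0.57 was not called (edgeR adjusted p = 0.0882). The netrin receptors UNC5A and UNC5B and the ligand NTN1 fell within co-culture, with log2 differences of -4.17, -2.73 and -1.07 (edgeR adjusted p = 2.48e-08, 5.01e-07 and 0.00131). UNC5B was at 67.7 CPM (alone) and 55.4 CPM (co-cultured) in control libraries, against 2.52 CPM (alone) and 8.35 CPM (co-cultured) in knockout libraries. Its rise from lone to co-cultured knockout was 1.74 (SE 0.23, edgeR adjusted p = 0.000615), and of the 11 tested 4 were called higher in that comparison and 0 lower, where 5.97% of all genes were called higher and 5.4% lower. Of these 4 calls 1 was made with only the groups compared, or without the first or second lone knockout library or the first co-cultured knockout library, and that of NTN1 was among those lost.

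REST, the repressor that reads RE1, was at 9.37, 11.4 and 7.29 CPM in co-cultured control and at 2.89, 1.91 and 9.47 CPM in co-cultured knockout. The third co-cultured knockout library was thus in the range of the controls and the other two below it, and the difference was not called (-0.98, SE 0.48, edgeR adjusted p = 0.107). In lone control REST was at 13.5, 9.91 and 6.17 CPM and in lone knockout at 13.8, 13.4 and 10.7 CPM, which overlapped (edgeR adjusted p = 0.526). Of 18 genes of REST and its cofactors, 17 were tested. Within co-culture 6 were lower and 0 higher by edgeR, where 25.3% of all genes were called lower and 24.1% higher. Those lower included the corepressor RCOR2 (fell by 2.76, edgeR adjusted p = 8.04e-07), the deacetylase HDAC1 (fell by 1.40, 1.12e-05) and the demethylase KDM1A (fell by 1.54, 2.73e-07). This count of 6 was 5 to 11 over the alternatives run.

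A list of 25 other neuronal genes known to carry REST sites had more genes lower than higher. Of the 19 tested, 4 were higher and 9 lower in knockout within co-culture by edgeR, where 24.1% of all genes were called higher and 25.3% lower. The median log2 difference of the 19 was -0.69. STMN3, a microtubule regulator, fell by 2.89 (SE 0.23, edgeR adjusted p = 4.70e-07), from 177 to 23.9 CPM, and the synaptic genes CPLX1, UNC13A and GRIN1 fell too, with log2 differences of -3.28, -2.74 and -4.49 (adjusted p = 2.66e-06, 1.33e-07 and 6.66e-08 by edgeR). The secretory granule gene SCG2 fell by 3.75 (edgeR adjusted p = 1.54e-06). The other direction included CHGA, also of secretory granules, and the synaptic gene SNAP25, both named after their values were seen. CHGA rose by 4.31, from 0.305 to 6.04 CPM, and SNAP25 by 3.57, from 1.09 to 13.0 CPM (edgeR adjusted p = 7.47e-07 and 7.97e-07).

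Markers of neurons and neuroendocrine cells were mixed as well. Of 20 such genes 9 were tested, and within co-culture 3 were higher, 3 lower and 3 not called by edgeR. Their summed level was 455 to 536 CPM in co-cultured control and 1057 to 1405 CPM in co-cultured knockout, and most of the latter was UCHL1, which rose from 276 to 1021 CPM (1.89, edgeR adjusted p = 3.82e-07). The neuronal microtubule protein MAPT fell from 53.3 to 6.81 CPM and the stem cell factor SOX2 from 11.2 to 0.738 CPM (edgeR adjusted p = 7.00e-08 and 7.59e-07). The other genes called higher, named after their values were seen, were the neuronal factor POU3F2, from 0.0271 to 0.566 CPM, and the Notch ligand DLL3, from 8.51 to 19.6 CPM (edgeR adjusted p = 0.000696 and 0.000979). In the co-cultured knockout 3 of the 20 genes had 0 counts in all 3 libraries. In co-cultured against lone knockout, 1 of the 9 was called higher and 1 lower by edgeR. Of all genes, 5.97% were called higher and 5.4% lower there. ENO2 rose from 88.2 to 167 CPM (0.92, edgeR adjusted p = 0.00294). MAP2, a dendrite protein, fell from 9.57 ± 1.60 CPM in lone to 3.28 ± 1.27 in co-cultured knockout (edgeR adjusted p = 0.0143). The MAP2 call was lost without the first lone or the first co-cultured knockout library (edgeR adjusted p = 0.0663 and 0.0679). Within co-culture MAP2 overlapped the control at 2.68 ± 0.914 CPM and was not called (edgeR adjusted p = 0.505).

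**Figure D4:**
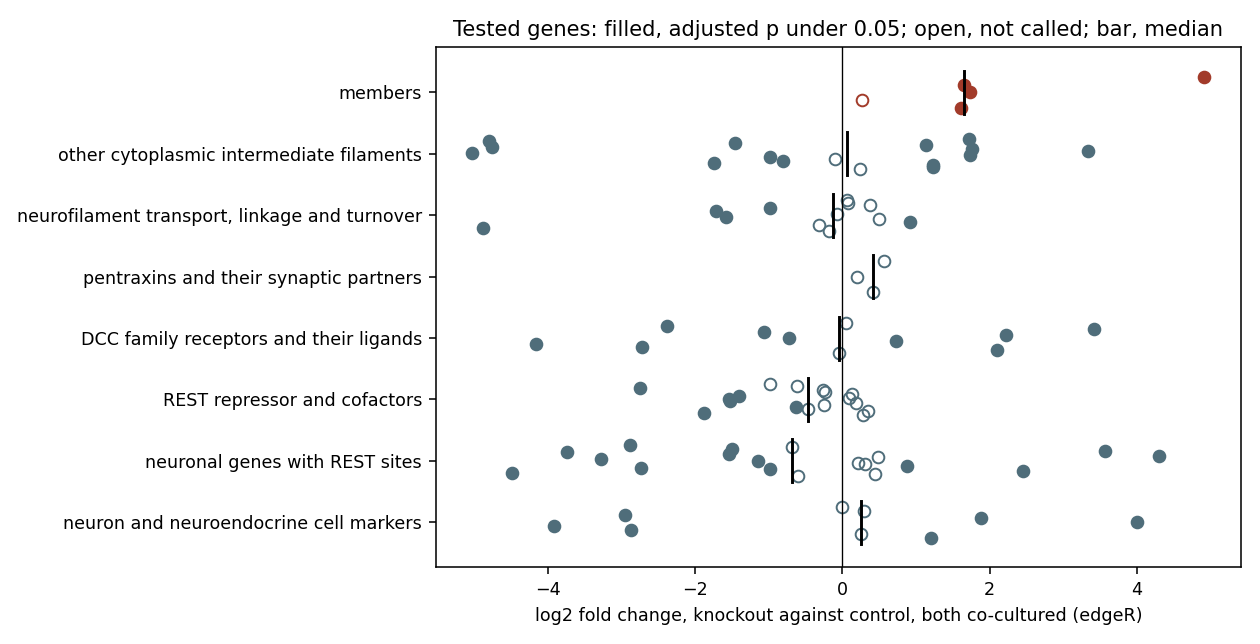
Log2 fold change of co-cultured knockout against co-cultured control (horizontal axis, edgeR) for the genes tested in each list (rows). Filled points have an adjusted p under 0.05, open points do not, and the vertical bars are medians. Of the 5 members, chosen partly on lone knockout values, 4 lie above 1.6. The other intermediate filaments split into 7 higher and 7 lower.

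The genes whose pattern over the 12 libraries was most like that of NEFL, by Pearson's r of log2 CPM among 14285 genes, were KCNMA1 and MARCHF4 (r = 0.998 each) and VIM (0.997). MARCHF4, a membrane ubiquitin ligase, was at 2.28 CPM (alone) and 4.03 CPM (co-cultured) in control libraries, against 144 CPM (alone) and 94.3 CPM (co-cultured) in knockout libraries. KCNMA1, a potassium channel, was at 6.58, 9.77, 105 and 77.5 CPM in the same order. For NPTX1 they were DCLK2, GFRA1 and IQSEC1 (r = 0.987, 0.986 and 0.985). GFRA1, a receptor of the glial factor GDNF, was at 3.06, 3.32, 32.9 and 11.4 CPM, and DCLK2, a microtubule-associated kinase, at 4.93, 5.07, 27.2 and 12.5 CPM. The libraries fall into 4 groups and share their scaling, and these r values are descriptions with no test.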

How the data were processed

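RNA-seq read counts were measured in 12 libraries, 3 in each of 4 groups set from the labels. A single table of unnormalized whole-number counts, with a row for each Ensembl gene, was deposited by the authors. The submitters' processing notes name FastQC, STAR 2.7.9a, featureCounts, R 4.2.1, DESeq2 1.36.0 and GRCh38 (hg38); annotation release and strand setting are not given in the sources used here. Identifiers were matched to GENCODE 29 (58366 of 61541 found) for positions, exon length and GC content.

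Counts were analysed as deposited in R 4.3.3 with edgeR 4.0.16: filterByExpr on the 4 groups (16768 genes kept), TMM scaling, 1 model of 4 group means over all 12 libraries (common biological coefficient of variation 22.1%), robust quasi-likelihood F-tests, and Benjamini-Hochberg adjustment over all genes, called under 0.05. The procedure was tested on simulated data. Single levels were compared by exact two-sided permutation tests. A floor of 3 counts and exact 95% intervals were used for genes with few counts. Library totals of 14921371 to 35723762 counts make 1 CPM at least 14.9 counts. Replicates differed by more than counting noise (chi-square 8.31 to 130 per gene), so each was counted once.

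The members and the gene lists were chosen with earlier results of these data known. Named genes were the 8 members, TYMS, all genes of lists of 12 or fewer, REST, VIM, KRT8, KRT18, the 3 genes of each longer list with the smallest p in each of 3 comparisons, and the 3 genes most like NEFL or NPTX1. A few genes covered by this rule are not reported. Alternatives were other scalings, DESeq2 1.42.0, other count filters, only the groups compared, a replicate block, GC offsets, and leaving out each library. Also listed were fibroblast, endothelial and leukocyte markers, which summed to at most 24.4, 2.73 and 6.22 CPM, and 9 enzyme genes known to be high in A549, which summed to 6512 to 8438 CPM in control and 14792 to 16393 CPM in knockout libraries.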

Additional observations from a re-analysis of the deposited data

Results flagged for a closer look

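For 2 of the members, NEFL and PRTG, the co-culture difference went opposite ways without overlap in the libraries labelled control and knockout, as it did in this direction for 0.441% of all genes. Every co-cultured control library lay above every lone control library, and every co-cultured knockout library lay below every lone knockout library. The rise in control was not called by edgeR for either gene. It rested on 44 lone and 124 co-cultured counts for NEFL and on 36 and 106 for PRTG. The fall in knockout was used in the choice of members, so nothing is read from the share of 0.441%. The co-culture difference in knockout minus that in control was -1.77 (SE 0.23) on the log2 scale for NEFL and -2.02 (SE 0.44) for PRTG. This co-culture difference in knockout minus that in control was not tested for these genes, because the choice of members used part of it. Leaving out each library in turn gave -1.91 to -1.69 for NEFL and -2.31 to -1.71 for PRTG.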

How the results depend on the processing

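Among the tested members, NEFL, INA, NPTX1 and PRTG stayed higher in knockout within co-culture, with an adjusted p under 0.05, in all 15 alternatives each. The log2 differences were 4.79 to 5.01 (NEFL), 1.45 to 1.74 (INA), 1.61 to 1.99 (NPTX1) and 1.43 to 1.75 (PRTG). The alternatives reuse the same libraries, and NEFL and NPTX1 were picked partly on the co-cultured knockout libraries. The alternatives therefore do not remove the effect of that choice. NPTXR within co-culture was 0.30 with library size scaling and 0.67 with GC offsets, with or without the replicate block, and passed the test in these 3. For knockout against control alone, library size scaling gave 6.86 for NEFL and 0.01 for NPTXR. GC offsets, without and with the block, gave 4.24 and 4.25 (NPTX1), 0.83 and 0.83 (NPTXR) and 3.10 and 3.10 (PRTG). For co-cultured against lone knockout they gave -0.91 and -0.91 (NEFL), -2.27 and -2.27 (NPTX1), -0.09 and -0.09 (NPTXR) and -0.50 and -0.49 (PRTG), and for the difference in knockout minus that in control -1.95 and -1.96 (NEFL), -2.25 and -2.29 (NPTX1), -0.16 and -0.16 (NPTXR) and -1.55 and -1.55 (PRTG). For co-cultured against lone control, signs turned for INA (-0.13 without the third lone control library; -0.13 to 0.28 without 1 library), NPTX1 (0.01, block with GC offsets) and NPTXR (0.07 and 0.06), none of them called. Leaving out 1 library gave 6.57 to 6.83 (NEFL), 2.51 to 2.94 (INA) and 3.29 to 3.92 (PRTG) for knockout against control alone, and -1.91 to -1.69 for the NEFL difference in knockout minus that in control. The cause of these shifts was not tested.

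List genes called between co-cultured and lone knockout, 6 lists together, numbered 13; they were 23 with DESeq2, 21 with no count filter, 3 with only the groups compared, 32 and 30 with GC offsets without and with the block, and 4 to 26 without 1 library. All genes called there numbered 1907, but 3347 with DESeq2, 3340 with no count filter, 664 with only the groups compared, 4694 and 3990 with GC offsets, 5681 without the third co-cultured knockout library and 536 without the first. Pairing by replicate number was not uniform. Of 18 same-number pairs 7 correlated over 0.1, and the own number correlated best in 13 of 36 cases. Lone control and lone knockout correlated at 0.491 for replicate 1 and 0.378 for replicate 3. The third co-cultured knockout library correlated at -0.603 with the third lone control library and at 0.639 with the first. A block by replicate number does not remove such likeness across numbers. The replicate block alone gave 1080 calls between co-cultured and lone knockout, and changed no call of a member. NEFM, NEFH and NPTX2 are limited by depth. Library size scaling moved the median of all genes between lone knockout and lone control from 0.09 to 0.24.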
